A study of Mus musculus with 33 samples.

Results

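The report covers 10 mouse genes of heart and striated muscle out of the 37991 gene identifiers counted in each library. They were the cardiac transcription factors Nkx2-5, Tbx5 and Hand2, the thin filament genes Acta1, Actc1 and Tnnt2, the thick filament genes Myh6, Myh7 and Myl7, and the calcium release channel gene Ryr2. The genes were selected on earlier results of these libraries, above all the fall of Acta1 in embryoid bodies (EBs) of the Apex1 mutant against control. That contrast is therefore given as a description, without a test. The control EB libraries it used also enter other comparisons, and Acta1 is given without a test there too.

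RNA was sequenced in 33 libraries from E14TG2a, a mouse embryonic stem cell (mESC) line, in 3 states. These were undifferentiated mESCs, EBs harvested on day 8, and EBs of that day that had received 5 µM retinoic acid (RA) from day 4 on (EBs + RA). All lines had gone through CRISPR/Cas9 transfection and puromycin selection, the control lines with the vector lacking a guide RNA. Control clones #1, #4 and #7, Neil1 mutant clones #7, #9 and #11 and Neil2 mutant clones #1, #11 and #14 gave 3 libraries per genotype and stage. The Apex1 mutant was a single clone, #46, with 2 technical duplicates per stage, so that its values describe that clone. NEIL1 and NEIL2 are DNA glycosylases that remove oxidised bases, and APEX1 is the endonuclease that cuts DNA at sites left without a base. The study asked whether mESCs lacking these enzymes differentiate normally.

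Each library held 21523742 to 48350904 counts on genes (median 26720028). Levels are given as counts scaled to library size (CPM) after TMM normalization, which scales each library by the trimmed mean of its differences from the others. The targeted genes did not serve as a check of the labels, since counts are summed over whole genes and the planned deletions take out only a part of each. Neil1 lay at 2.48 to 31.5 CPM in Neil1 mESCs and 7.62 to 9.85 CPM in control mESCs. Neil2 lay at 5.50 to 9.54 CPM in Neil2 mESCs and 5.74 to 15.2 CPM in control mESCs. Apex1 was higher, not lower, in the libraries labelled Apex1 at every stage, at 56.5 to 86.2 CPM against 7.76 to 17.8 CPM in all control libraries. The mESC library of Neil1 clone #11 stood apart, with no count on the Y chromosome and none on 345 of 511 X-linked genes that held at least 10 counts in each other mESC library. None of the 10 genes is X-linked, and no gene among them was called in Neil1 mESCs with or without this library.

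Striated muscle contracts through the sarcomere, in which thick filaments of myosin pull on thin filaments of actin. They do so when calcium, released from internal stores, binds the troponin complex on the thin filaments. The heart forms from mesoderm that leaves the primitive streak, and its progenitors switch on transcription factors of the NK, T-box, GATA and HAND families before the contractile genes. EBs are aggregates of differentiating mESCs in which streak-like mesoderm and later beating heart muscle can form, while RA is used to favour neural tissue. The bulk libraries average over all cells, so that fewer cells of a type and less RNA per cell cannot be told apart.

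Promoter sequences are shown because both sarcomeric actin genes fell together in mutant EBs, while Myl7 did not. The CArG box is the site to which serum response factor binds in muscle genes. Among the 9 of 10 genes with an entry in the RefSeq promoter table (GRCm38.p6; Tbx5 had none), it occurred in Acta1, Actc1 and Myl7, against 1.63% of all 32851 promoters in the table. The search covered 250 bases before to 50 bases after each start on both strands, and a match is a description of the letters only. The 250 bases before the start are printed 5′ to 3′, with capitals marking matches to the CArG box, the MCAT motif (CATTCC), the TATA motif (TATAAA) and the E-box (CAGCTG). Positions are those of the only exact match in NCBIM37, all on the minus strand, at chr8:126418676-126418925 for Acta1, chr2:113878612-113878861 for Actc1 and chr11:5798786-5799035 for Myl7.
Acta1: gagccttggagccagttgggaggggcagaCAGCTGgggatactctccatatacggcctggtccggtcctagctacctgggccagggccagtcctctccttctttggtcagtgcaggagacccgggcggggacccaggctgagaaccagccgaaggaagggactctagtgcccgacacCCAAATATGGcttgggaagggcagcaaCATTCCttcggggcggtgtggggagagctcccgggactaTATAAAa
Actc1: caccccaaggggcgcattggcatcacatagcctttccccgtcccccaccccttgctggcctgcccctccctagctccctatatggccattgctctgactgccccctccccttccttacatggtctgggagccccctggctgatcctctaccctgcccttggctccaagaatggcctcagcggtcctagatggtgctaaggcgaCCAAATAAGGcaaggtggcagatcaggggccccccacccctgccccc
Myl7: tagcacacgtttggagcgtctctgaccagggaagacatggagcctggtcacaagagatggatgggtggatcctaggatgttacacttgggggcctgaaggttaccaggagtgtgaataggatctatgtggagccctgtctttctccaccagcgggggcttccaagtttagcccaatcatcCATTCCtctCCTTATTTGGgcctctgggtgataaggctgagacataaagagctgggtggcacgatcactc
The CArG box began 73 bases before the start given in the promoter table in Acta1, 47 in Actc1 and 61 in Myl7. These starts were not checked, and in Actc1 the TATA motif began 33 bases after the start. The MCAT motif, read by TEAD factors, matched in Acta1, Myl7, Myh6, Myh7 and Tnnt2, against 14.66% of all promoters. Myh7 and Tnnt2 each had another entry in the promoter table, in which none of the motifs matched. A GATA motif (AGATAA) matched in Hand2 and Tnnt2, against 11.18%, the TATA motif in Acta1, Actc1 and Myh6, against 13.62%, and the E-box in Acta1 and Tnnt2, against 16.3%.

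The 10 genes were low in all libraries. The highest value of any of them was 21.4 CPM, that of Myl7 in a Neil2 mESC library. In control EBs, levels per kilobase of exon were 7.07 ± 2.52 CPM per kb (SD, n = 3) for Acta1, 6.18 ± 0.511 for Myl7, 4.16 ± 2.59 for Hand2 and 3.08 ± 0.379 for Actc1. The first 3 of these did not differ beyond their spread. Tnnt2 followed at 1.19 ± 0.258 CPM per kb, and Myh6, Ryr2, Nkx2-5, Myh7 and Tbx5 lay between 0.0608 and 0.404 CPM per kb.
Markers of heart muscle were mixed in control EBs. Pln, which restrains the calcium pump, had 0.0533 ± 0.0267 CPM (SD, n = 3), and the atrial peptide gene Nppa had 0.00701 ± 0.0121 CPM. Of 25 other sarcomere genes with an identifier, 8 were below 1 CPM in control EBs and 9 were at 5 CPM or more. Among the latter were Tpm1, Cryab, a chaperone of many tissues, at 18.4 ± 6.59 CPM, Des, the muscle intermediate filament gene, at 16.3 ± 5.23 CPM, and Tnni3, cardiac troponin I, at 7.45 ± 1.84 CPM. Of 24 genes of calcium handling, conduction and cardiac secreted proteins, 13 were below 1 CPM and 3 at 5 CPM or more. Skeletal muscle genes were mixed too, with 14 of 22 below 1 CPM and 5 at 5 CPM or more, the highest being Mylpf, the fast light chain, at 90.9 ± 11.8 CPM. Myod1 and Myog, the factors that commit and differentiate myoblasts, had 0.208 ± 0.0511 and 0.160 ± 0.0800 CPM. By contrast, Hand1, a factor of lateral and extraembryonic mesoderm, had 96.6 ± 11.6 CPM, Gata4, of heart and endoderm, 72.4 ± 4.77 CPM and Acta2, the smooth muscle actin, 41.0 ± 17.2 CPM. The set is named for where its genes are known to act, and the markers did not mark the EBs as a whole as heart or skeletal muscle.

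**Figure D1:**
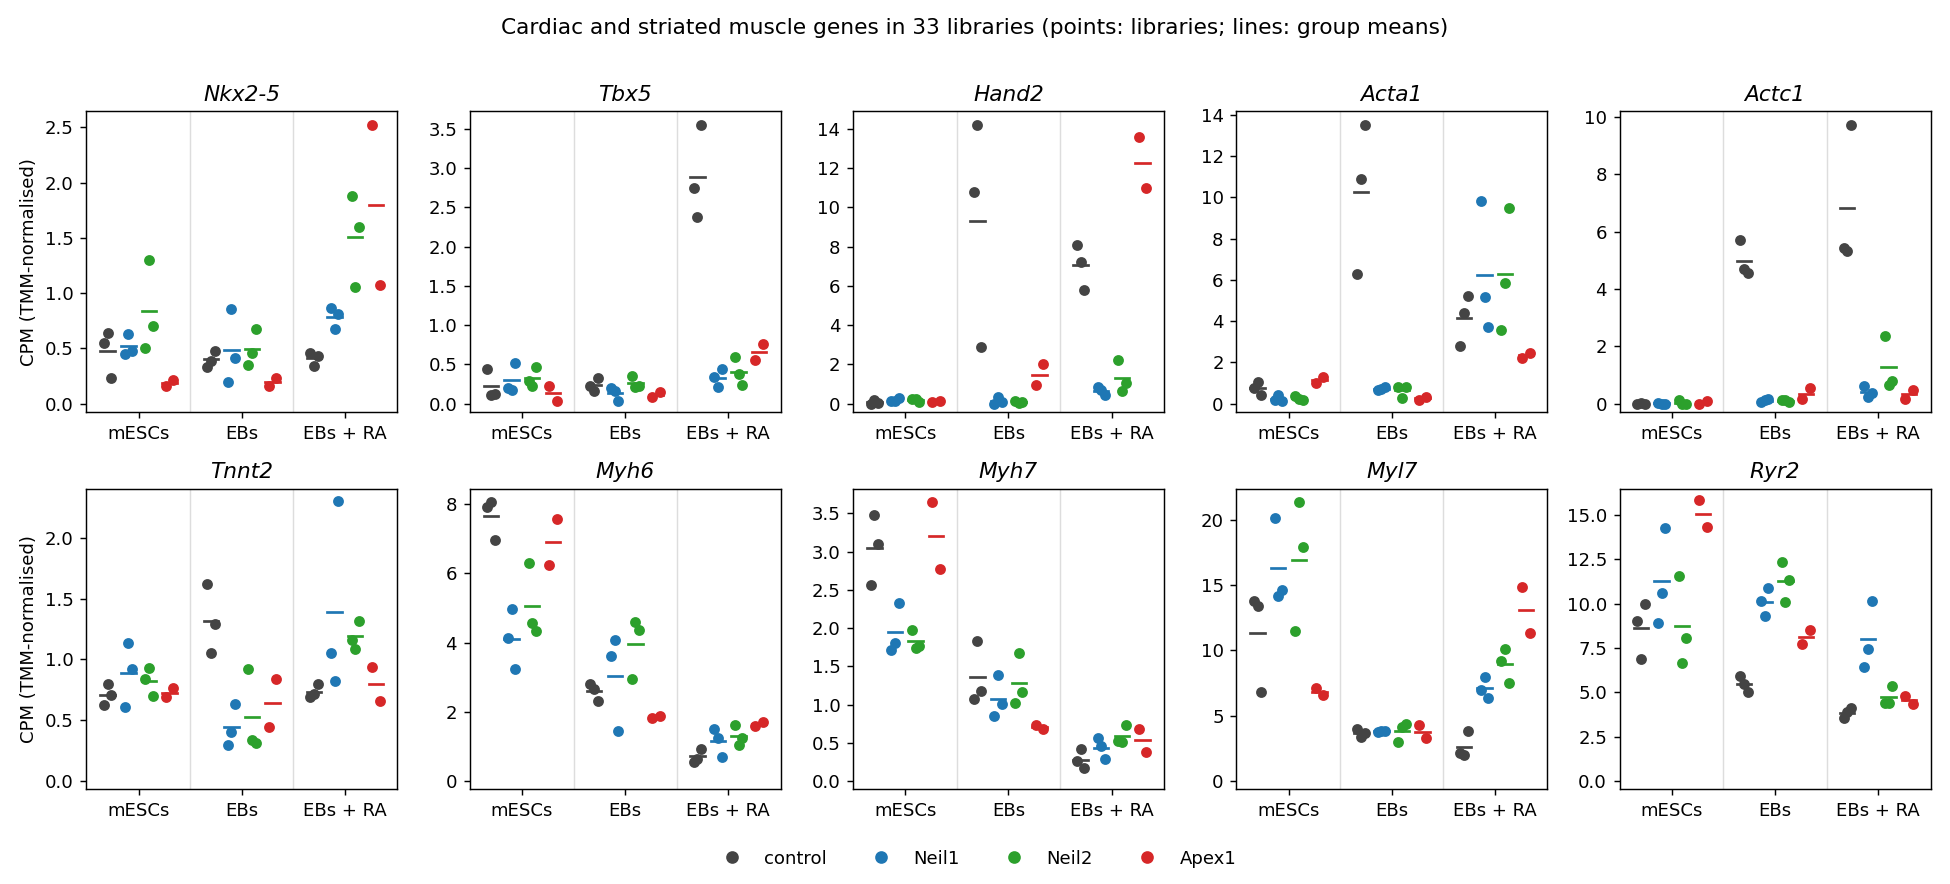
CPM of each gene (y axis, CPM after TMM normalization, own scale per panel) by stage (x axis) and genotype (colour), with 1 point per library and a line at the group mean. Acta1, Actc1 and Hand2 lay at 2.91 to 14.2 CPM in control EBs and at or below 2.02 CPM in all mutant EBs, whereas Tbx5 reached 2.37 to 3.54 CPM in control EBs + RA and at most 0.76 CPM in every other library.

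The control clones showed how the genes changed without a mutation. In EBs against mESCs, 4 of the 9 genes tested rose and 4 fell, where 18.5% of all tested genes rose and 20.2% fell. Calls came from the quasi-likelihood test of edgeR, adjusted by Benjamini-Hochberg over all tested genes, and required a false discovery rate (FDR) under 0.1 together with a log2 fold change beyond 0.5 in size. Standard errors of log2 fold changes are given as SE. In EBs + RA against EBs, 1 of 10 rose and 5 fell, where 23.3% of all tested genes rose and 20.7% fell. The first count includes Acta1, Hand2 and Actc1 and the second Acta1, Tbx5 and Myh7. Selection or the filter on low counts bears on these genes, so that nothing is read from the counts. Same-numbered libraries of the stages come from the same clone, and with the clone as a block 7 and 6 genes were called, against 8 and 6 without.
Actc1, the actin of heart muscle (ENSMUSG00000068614, chromosome 2, 113873018 to 113879284), had 1 count in the 3 control mESC libraries together. It rose to 5.70, 4.71 and 4.57 CPM in control EBs, 516 counts in total, a ratio of 407 with a 95% counting interval of 72.7 to 16101. In EBs + RA it had 5.42, 5.31 and 9.71 CPM, which overlapped the EBs (log2 fold change 0.44, SE 0.27, FDR 0.215).
Hand2, a helix-loop-helix factor of the right ventricle that also acts in limb buds and neural crest (ENSMUSG00000038193, chromosome 8, 59799780 to 59803314), went from 0, 0.189 and 0.0393 CPM to 10.8, 14.2 and 2.91 CPM (log2 fold change 6.84, SE 0.85). Both Hand2 and Actc1 passed the filter on low counts through the EB libraries alone and so had to differ. With RA, Hand2 stayed at 8.09, 7.24 and 5.80 CPM, within the spread of the EBs (log2 fold change −0.41, SE 0.48, FDR 0.501).
Acta1, the actin of adult skeletal muscle that the embryonic heart also expresses (ENSMUSG00000031972, chromosome 8, 126415669 to 126418651), had 0.769, 1.06 and 0.432 CPM in control mESCs, 6.30, 10.9 and 13.5 CPM in EBs and 2.81, 4.41 and 5.23 CPM in EBs + RA. The groups did not overlap, with a log2 fold change of 3.73 (SE 0.39) from mESCs to EBs and −1.30 (SE 0.33) from EBs to EBs + RA.
Tbx5, a T-box factor of the atria, left ventricle and forelimb (ENSMUSG00000018263, chromosome 5, 120284672 to 120335227), was at 0.114 to 0.439 CPM in control mESCs and 0.156 to 0.332 CPM in EBs. It reached 2.74, 2.37 and 3.54 CPM in EBs + RA (log2 fold change 3.56, SE 0.35), the only rise past the limits with RA among the 10. With 4 to 11 counts in EBs, it passed the filter on low counts through the EBs + RA libraries. Its rise is therefore a description without a test.

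The thick filament genes moved the opposite way. Myl7, the atrial regulatory light chain (ENSMUSG00000020469, chromosome 11, 5796640 to 5798785), fell from 13.8, 13.4 and 6.8 CPM in mESCs to 3.95, 3.35 and 3.65 CPM in EBs (log2 fold change −1.65, SE 0.28, FDR 0.00179). Myh6, the alpha heavy chain (ENSMUSG00000040752, chromosome 14, 55560758 to 55585764), fell from 7.91, 8.06 and 6.96 CPM to 2.80, 2.65 and 2.32 CPM and then to 0.562, 0.641 and 0.927 CPM with RA. Both steps passed, with log2 fold changes of −1.58 (SE 0.21, FDR 0.000461) and −1.87 (SE 0.29, FDR 0.00079).
Myh7, the beta heavy chain next to it (ENSMUSG00000053093, chromosome 14, 55589525 to 55613471), had 2.56 to 3.48, then 1.07 to 1.83, then 0.166 to 0.415 CPM, with log2 fold changes of −1.20 (FDR 0.0123) and −2.27 (SE 0.41). With 5 to 11 counts in EBs + RA, it passed the filter for the step with RA through the EBs. The fall with RA is therefore a description without a test. The heavy chain genes are close copies of each other. Of the 51-base exon windows of Myh6 76.47% and of Myh7 84.2% occurred once in the genome, against at least 97.26% for the other 8 genes, so that their counts are less certain.
Ryr2, the channel that releases calcium in heart muscle and that neurons also use (ENSMUSG00000021313, chromosome 13, 11645370 to 12199212), fell from 6.89 to 9.98 CPM to 5.05 to 5.93 CPM in EBs (log2 fold change −0.67, FDR 0.0299) and to 3.53 to 4.11 CPM with RA (−0.52, FDR 0.0539). The first call was lost without control EB replicate 2 (−0.65) and the second in 3 of 6 fits that left out 1 library, with values from −0.58 to −0.45.
Tnnt2, cardiac troponin T (ENSMUSG00000026414, chromosome 1, 137737452 to 137748837), which ties the troponin complex to tropomyosin, rose from 0.623 to 0.795 CPM to 1.05 to 1.62 CPM (log2 fold change 0.89, FDR 0.0509) and was back at 0.694 to 0.795 CPM with RA (−0.87, FDR 0.0356). The rise was not called without control mESC or control EB replicate 1 or with the clone as a block (FDR 0.107), and the fall not without control EB replicate 1.
Nkx2-5, a homeobox factor of early heart progenitors (ENSMUSG00000015579, chromosome 17, 26975609 to 26978510), stayed between 0.236 and 0.643 CPM in all 9 control libraries and was called in neither comparison.

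In mutant mESCs, little separated the genes from control. None of 7 tested was called in Neil1 or in Neil2 mESCs, where 1.82% and 1.83% of all tested genes were called in either direction. An unadjusted p below 0.05 was reached by 3 genes in each, and DESeq2 called 1 in each, Myh6. Acta1 had 0.163, 0.421 and 0.147 CPM in Neil1 mESCs and 0.378, 0.223 and 0.2 CPM in Neil2 mESCs. All 6 values lay below the 3 control values, but the log2 fold changes of −1.64 (SE 0.55) and −1.53 (SE 0.47) did not pass. Acta1 had 4 to 10 counts in Neil1 and 6 to 9 in Neil2, against 11 to 28 in control, and passed the filter through control. Its values, also where counted above, are a description without a test. Myh6 (−0.91, FDR 0.137, and −0.62, FDR 0.228) and Myh7 (−0.66, FDR 0.303, and −0.76, FDR 0.206) likewise lay below every control library without passing. Myh6 was called in both mutants when control mESC replicate 3 was left out. Acta1 lay past the limits there too, which is a description.
In the mESCs labelled Apex1, 1 of 7 genes was called, where 16.9% of all tested genes were. Ryr2 had 15.9 and 14.3 CPM there, above all controls (log2 fold change 0.78, SE 0.20, FDR 0.057). The call was lost in 4 of 5 fits without 1 library, with values from 0.63 to 0.90, and with the duplicates summed (FDR 0.361). Without control mESC replicate 3, Myl7 (−1.01) was called as lower as well, as it was with the replicate block. So was Nkx2-5 (−1.65), which had 5 and 6 counts in the Apex1 libraries and passed the filter through control alone.

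In EBs, both actin genes and Hand2 were far lower in Neil1 and Neil2 mutants than in control. In Neil1 EBs, 4 of 9 genes lay past the limits below control and 1 above, where 13.1% of all tested genes fell and 10.4% rose. In Neil2 EBs, it was 3 of 9 and 1, where the shares over all genes were 7.69% and 8.65%. Nothing is read from these counts, since each includes Acta1, chosen with these control libraries, and Hand2 and Actc1, which passed the filter through control alone. Outside these 3 genes Ryr2 rose in Neil1 and in Neil2 EBs. Tnnt2 lay lower in Neil1 EBs, a description since it passed the filter through control. The libraries labelled Apex1 are compared with the same control EB libraries, so that the 3 mutants share their reference. There, 5 of 9 genes lay past the limits below control and 1 above, against 13.9% and 11.9% of all tested genes, a count that the selection of the genes used.
Actc1 had 0.05, 0.122 and 0.149 CPM in the Neil1 clones and 0.128, 0.126 and 0.0450 CPM in the Neil2 clones, each 1 to 4 counts, against 121 to 271 counts in control EBs. This gave log2 fold changes of −5.43 (SE 0.35) for Neil1 and of −5.54 (SE 0.38), and no mutant library approached a control library. In the Apex1 duplicates it had 0.162 and 0.534 CPM, a log2 fold change of −3.82 (SE 0.38).
Hand2 had 0, 0.366 and 0.112 CPM in Neil1 EBs and 0.159, 0.0418 and 0.0901 CPM in Neil2 EBs. Both mutants were lower, with log2 fold changes of −5.76 (SE 0.90) for Neil1 and −6.43 (SE 0.75). Control EB replicate 3, at 2.91 CPM, lay well under the other 2 controls but above every mutant library, and without it the log2 fold changes were −6.19 and −6.86. In the Apex1 EBs Hand2 had 0.933 and 2.02 CPM, with a log2 fold change of −2.65 (SE 0.87).
Hand2 and Actc1 had fewer than 10 counts in every Neil1 and Neil2 EB library and entered these comparisons through the control libraries alone, so that a gene retained in this way had to differ. Their values are a description without a test.
Acta1 had 0.651, 0.732 and 0.820 CPM in Neil1 EBs, 0.829, 0.293 and 0.811 CPM in Neil2 EBs and 0.203 and 0.343 CPM in the Apex1 EBs. Every mutant library lay below the lowest control, and the Apex1 libraries overlapped only the lowest Neil2 library. The log2 fold changes were −3.78 (SE 0.32), −3.95 (SE 0.43) and −5.19 (SE 0.46), given as a description.

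The other genes changed less or not at all in EBs. Tnnt2 had 0.300, 0.407 and 0.633 CPM in Neil1 EBs (log2 fold change −1.54, SE 0.36). In Neil2 EBs it had 0.924, 0.335 and 0.315 CPM and was not called (−1.28, SE 0.46, and −2.03 without Neil2 EB replicate 1). It had 6 to 17 counts in Neil1 and 7 to 29 in Neil2 EBs, against 27 to 77 in control. Only 2 of 3 Neil1 and 1 of 3 Neil2 libraries reached 10 counts, so that Tnnt2 passed the filter through control. These values are a description without a test.
Ryr2 moved up, with 10.2, 9.31 and 10.9 CPM in the Neil1 clones and 12.3, 10.1 and 11.4 CPM in Neil2 EBs, above all controls (log2 fold changes 0.88, SE 0.16, FDR 0.00249, and 1.05, SE 0.18, FDR 0.00798). The Apex1 EBs had 7.74 and 8.54 CPM (0.57, SE 0.18). These EB values lay within the range of all mESC libraries, 6.68 to 15.9 CPM.
Myl7 did not separate, at 2.96 to 4.37 CPM in all 8 mutant EB libraries and 3.35 to 3.95 CPM in control. Its log2 fold changes were 0.06 (SE 0.20), 0.08 (SE 0.24) and 0.05 (SE 0.22) in Neil1, Neil2 and Apex1 EBs. Myh6 and Myh7 were not called in either Neil mutant, with log2 fold changes from −0.31 to 0.62. Myh6 lay above control in every Neil2 library and was called there without Neil2 EB replicate 1 (0.78). Nkx2-5 stayed at or below 0.854 CPM. Tbx5 was under the filter in EBs.

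**Figure D2:**
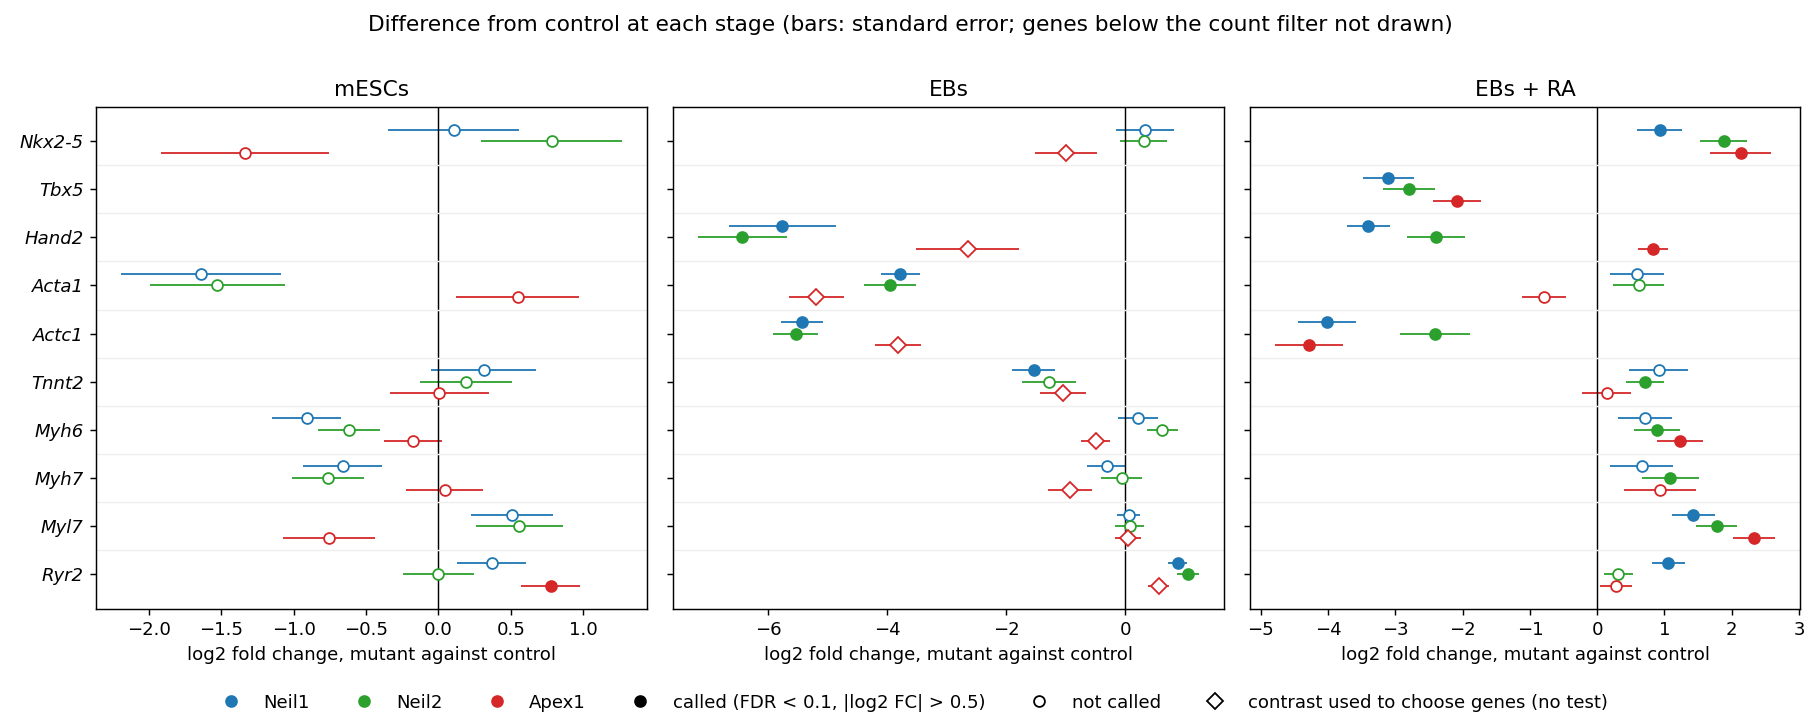
Log2 fold change of each mutant against control (x axis, own scale per stage) for each gene (y axis), with bars of 1 standard error. Filled circles lay past an FDR of 0.1 and a log2 fold change of 0.5 and diamonds mark the contrast used to choose the genes. Filled circles of Acta1, Hand2 and Actc1 in Neil1 and Neil2 EBs are a description without a test. So is that of Tnnt2 in Neil1 EBs. In EBs + RA the same holds for Tbx5 and Nkx2-5 in Neil1 and Neil2, Myh7 in Neil2 and Actc1 in Neil1 and Apex1. Hand2, Acta1 and Actc1 lay between −6.43 and −2.65 in all mutant EBs, whereas in EBs + RA Nkx2-5 and Myl7 lay above 0.

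The EB libraries that were low in these genes also had a lower summed level of streak and mesoderm genes and a higher one of pluripotency genes. The lists were chosen with earlier results of these data known, are described by counts and medians, and share the control libraries across mutants. Genes with few counts in a mutant, such as Mesp1 in Neil1 EBs, passed the filter through control and so had to differ. The list counts in EBs and in EBs + RA include such genes and are a description without a test. Their counts stand against shares over all tested genes of 13.1%, 7.69% and 13.9% lower and 10.4%, 8.65% and 11.9% higher in Neil1, Neil2 and Apex1 EBs. Of 12 tested genes of the primitive streak and cardiac mesoderm, 10 fell in Neil1, 9 in Neil2 and 10 in Apex1 EBs, with median log2 fold changes of −3.29, −3.36 and −1.95, where the median of all tested genes was at most 0.02. For Apex1 EBs these counts belong to the contrast that chose the 10 genes and are a description. Mesp1, the first factor of cardiac mesoderm, had 0.0644 ± 0.0578 CPM in Neil1 EBs and 3.67 ± 1.83 CPM in control (SD, n = 3). Evx1, of the posterior streak, had 0.661 ± 0.328 CPM in Neil2 EBs and 30.1 ± 4.02 CPM in control. The receptor gene Kdr, of vascular and cardiac progenitors, had a mean of 3.98 CPM over the technical duplicates of the 1 clone in Apex1 EBs and 37.4 ± 6.06 CPM in control. The summed level of the 12 genes was 61.7 to 177.5 CPM in mutant EBs and 406 to 542 CPM in control EBs.
Among 18 other cardiac transcription factors, 8 of 14 tested fell in Neil1, 7 of 16 in Neil2 and 10 of 16 in Apex1 EBs, while 1, 1 and 0 rose. Hand1 fell most in Neil2 and Apex1 EBs (log2 fold changes −3.54, FDR 9.5e-05, and −3.20) and Tbx20, of the heart chambers, in Neil1 EBs (−3.85, FDR 7.68e-06). The methyltransferase gene Smyd1 was the one that rose, in Neil1 (1.64, FDR 8.46e-05) and Neil2 EBs (1.21, FDR 0.0763).
The other sarcomere genes were mixed, with 8 of 18 tested lower and 2 higher in Neil1, 4 lower and 2 higher in Neil2, and 7 lower and 2 higher in Apex1 EBs. Tpm1, a tropomyosin shared with non-muscle cells, had 832 ± 81.8 CPM in control and fell to 188 ± 24.9 CPM (Neil1 EBs) and to 227 ± 61.2 CPM (Neil2 EBs). Ttn, the titin gene, was higher in Neil1 EBs (1.46, FDR 0.0932). Of 13 genes of calcium handling and conduction tested, 4 fell and 2 rose in Neil1 EBs and 4 fell in Neil2 EBs. In Apex1 EBs it was 4 lower and 1 higher of 14. The calcium channel gene Cacna1c fell most in both (−3.00, FDR 0.00029, and −2.12, FDR 0.00883), while Fabp3, a fatty acid carrier, rose in Neil1 EBs (0.59, FDR 0.0283).
Smooth muscle genes fell with the actins. Of 11 tested, 9, 6 and 7 were lower in Neil1, Neil2 and Apex1 EBs, and 1, 1 and 0 higher. Acta2 had 0.380 ± 0.118 CPM (Neil1 EBs), 0.353 ± 0.0979 CPM (Neil2 EBs) and a mean of 3.21 CPM over the duplicates in Apex1 EBs, against 41.0 ± 17.2 CPM in control. Of the skeletal muscle genes, 2 of 9 were higher and none lower in Neil1 EBs, Actn3 among them (0.69, FDR 0.0387). In Neil2 EBs 1 of 9 was higher, Ryr1 (0.79, FDR 0.0562), and in Apex1 EBs 2 of 12 were higher and 4 lower. The counts of higher genes in Neil2 and Apex1 lie near the shares over all genes, and the mutants were not compared with each other.
Pluripotency genes were higher in mutant EBs, 7 of 8 in Neil1 and 6 of 8 in each of Neil2 and Apex1. Their summed level was 4773 to 6541 CPM in mutant EBs and 3178 to 3836 CPM in control EBs. Endothelial genes went both ways, with 3, 2 and 3 of 7 lower and 2 higher in each mutant. Of 8 endoderm genes 7 were lower in Apex1 EBs and none was called in Neil1 or Neil2 EBs. Neural genes, of which 3, 2 and 2 of 5 were higher and 1 lower in each, included Pax6 (log2 fold changes 2.36, FDR 0.00302, and 1.77, FDR 0.00788, in Neil1 and Neil2). Of the epicardial and mesothelial genes Wt1 rose (1.09, FDR 0.00694) and Aldh1a2 fell (−0.99, FDR 0.0188) in Neil1 EBs, and none was called in the others.
The part of the pluripotent share of cells in the values of Acta1, Actc1, Hand2 and Ryr2 was not tested.

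**Figure D3:**
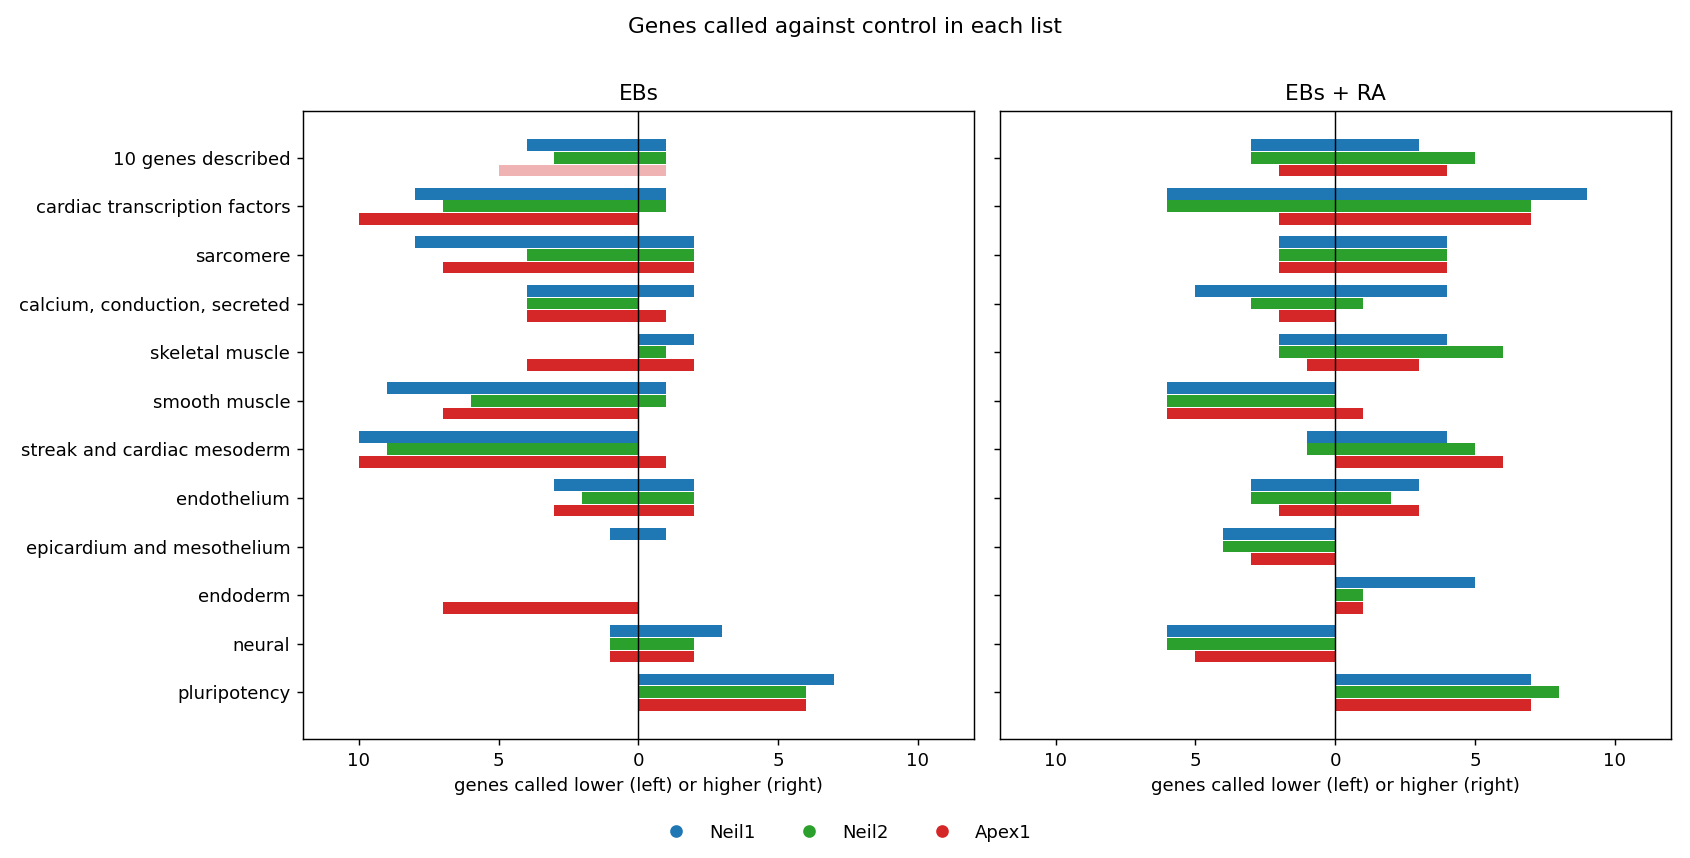
Number of genes called lower (bars to the left) or higher (bars to the right) than control in each gene list (y axis), for EBs and EBs + RA and for each mutant (colour). The pale bars mark the contrast used to choose the 10 genes, and the other bars, those of the lists included, also count values given as a description. In EBs the streak and mesoderm list had 9 or 10 lower genes in each mutant, and in EBs + RA it had 4 to 6 higher genes.

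With RA, Actc1 and Tbx5 lay below control in all 3 mutants, and Myl7 and Nkx2-5 lay above it. No other gene was past the limits in the same direction in all 3. In Neil1 EBs + RA, 3 of 10 genes rose and 3 fell, where 21.2% of all tested genes rose and 19.9% fell. In Neil2 EBs + RA, 5 rose and 3 fell, against 18.3% and 16.6%, and 5 genes in all were called with the replicate block. In the EBs + RA labelled Apex1, 4 rose and 2 fell, against 13.9% and 10.9%. These counts include Actc1, Tbx5, Nkx2-5 and Myh7 also where their values are a description, and nothing is read from the counts. Same-numbered control and Neil1 libraries deviated together in EBs + RA, and with the replicate block the count in Neil1 was again 6.
Actc1 had 0.619, 0.25 and 0.364 CPM in Neil1, 2.36, 0.638 and 0.799 CPM in Neil2 and 0.171 and 0.484 CPM in Apex1 EBs + RA, all below the control range of 5.31 to 9.71 CPM. The log2 fold changes were −4.01 (SE 0.43), −2.41 (SE 0.52, FDR 0.00952) and −4.29 (SE 0.51). In Neil1 and in Apex1 only 1 library reached 10 counts, so that Actc1 passed the filter there through control. The Neil1 and Apex1 values are a description without a test.
Tbx5, the gene that RA raised in control, had 0.341, 0.214 and 0.444 CPM in Neil1, 0.600, 0.383 and 0.243 CPM in Neil2 and 0.556 and 0.760 CPM in Apex1 EBs + RA. The log2 fold changes were −3.10 (SE 0.37), −2.80 (SE 0.38) and −2.09 (SE 0.35, FDR 0.00599). Only 2 of 3 libraries of each Neil mutant reached 10 counts, at 6 to 11 and 7 to 16 counts against 63 to 107 in control. The Neil values are therefore a description without a test. The Apex1 call was lost without Apex1 replicate 1 (−1.89).
Hand2 had 0.836, 0.679 and 0.444 CPM in Neil1 and 2.25, 0.670 and 1.04 CPM in Neil2 EBs + RA, below all controls (−3.40, SE 0.33, FDR 0.000322, and −2.40, SE 0.43, FDR 0.00464). The libraries labelled Apex1 lay on the other side of control, at 13.6 and 11.0 CPM against 5.80 to 8.09 CPM (0.83, SE 0.22, FDR 0.0323). That call was lost when either duplicate was left out (0.67 to 0.98 over the 5 fits), with the duplicates summed (FDR 0.176) and with all genotypes in 1 fit (FDR 0.174). The difference between Apex1 and the Neil mutants was not tested.

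With RA, Acta1 overlapped control in the Neil mutants but not in the libraries labelled Apex1. It had 9.82, 5.15 and 3.72 CPM in Neil1, 3.56, 5.83 and 9.48 CPM in Neil2 and 2.23 and 2.45 CPM in Apex1 EBs + RA, against 2.81, 4.41 and 5.23 CPM in control. The Neil libraries overlapped control, with log2 fold changes of 0.60 (SE 0.40, FDR 0.264) and 0.62 (SE 0.38, FDR 0.247). The Apex1 libraries lay just below control (−0.79, SE 0.33, FDR 0.124). Each of these became a call without 1 library, at 0.86 without Neil1 replicate 3, 0.9 without Neil2 replicate 1 and −1.01 without control replicate 1.
Myl7 rose in all 3 mutants, to 6.97, 7.93 and 6.34 CPM in Neil1, 9.19, 10.1 and 7.54 CPM in Neil2 and 14.8 and 11.3 CPM in Apex1, against 2.11, 1.96 and 3.84 CPM in control. The log2 fold changes were 1.43 (SE 0.32, FDR 0.0103), 1.78 (SE 0.30, FDR 0.00387) and 2.33 (SE 0.32, FDR 0.00267), and each call held in every fit that left out 1 library.
Nkx2-5 lay higher as well but remained low, at 0.867, 0.679 and 0.808 CPM in Neil1, 1.88, 1.05 and 1.6 CPM in Neil2 and 2.53 and 1.07 CPM in Apex1, against 0.339 to 0.462 CPM in control. The log2 fold changes were 0.93 (SE 0.34), 1.88 (SE 0.35) and 2.13 (SE 0.45, FDR 0.0141). Only 2 of 3 control libraries reached 10 counts, at 9 to 14, against 19 to 28 in Neil1 and 33 to 50 in Neil2. In the Neil comparisons Nkx2-5 thus passed the filter through the mutants, and the Neil values are a description without a test. Over the 6 fits that left out 1 library the Neil1 value was 0.80 to 1.03. The Apex1 call was lost without Apex1 replicate 1 (1.4).
Ryr2 rose in Neil1, to 6.41, 7.43 and 10.1 CPM against 3.53 to 4.11 CPM (1.06, SE 0.25, FDR 0.0135). It was not called in Neil2 (0.32, FDR 0.292) or Apex1 (0.28, FDR 0.443), although both lay above every control library.
The heavy chains and Tnnt2 were near the limit. In Neil2 EBs + RA, Myh6 (0.89, FDR 0.0768) and Tnnt2 (0.71, FDR 0.0891) passed, at 1.05 to 1.61 and 1.08 to 1.32 CPM. The Tnnt2 call held in none of 6 fits that left out 1 library and the Myh6 call in 2 of 6. Myh7 had 0.510 to 0.729 CPM there (1.09, SE 0.42, and 0.81 to 1.45 over these fits). With 5 to 11 counts in control against 14 to 21, it passed the filter through Neil2, and its value is a description without a test. Myh6 also passed in Apex1 (1.58 and 1.69 CPM, 1.23, FDR 0.0402), but not without control replicate 1 (1.08) or either duplicate (1.18 to 1.27). In Neil1, Tnnt2 lay above every control library (0.91, FDR 0.128) and passed without Neil1 replicate 2 (1.18), and Myh6 passed without Neil1 replicate 3 (0.96).

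In EBs + RA the neural list was lower in all mutants, with 6 of 6 genes lower in Neil1 and Neil2 and 5 of 6 in Apex1, and a summed level of 40.4 to 84.8 CPM against 270 to 458 CPM in control. Pluripotency genes were higher, 7, 8 and 7 of 8, with a summed level of 448 to 2143 CPM against 160 to 244 CPM. The part of either in the values of Myl7, Nkx2-5, Actc1 and Tbx5 was not tested. Epicardial and mesothelial genes, which RA raised in control, were also lower, 4, 4 and 3 of 5. Aldh1a2, the enzyme that makes RA in mesoderm, had 4.41 ± 1.51 CPM in Neil1 EBs + RA and 91.8 ± 1.34 CPM in control.
The list counts in EBs + RA stand against shares over all genes of 21.2%, 18.3% and 13.9% higher and 19.9%, 16.6% and 10.9% lower in Neil1, Neil2 and Apex1, and several lie near them, the counts of higher sarcomere genes in Neil1 and Neil2 among them. Among the other cardiac transcription factors, 9 of 18 rose and 6 fell in Neil1, 7 rose and 6 fell in Neil2, and 7 rose and 2 fell in Apex1 EBs + RA. Zfpm2, a partner of GATA4, fell most in each (−4.70, −3.53 and −1.61, FDR 0.000265, 0.000907 and 0.0206), while Hand1 rose most in Neil1 (2.52, FDR 0.0506, with an SD of 46.9 CPM around a mean of 37 CPM), Smyd1 in Neil2 (1.54, FDR 0.0346) and Tbx3 in Apex1 (1.45, FDR 0.00495). Of 18 tested sarcomere genes, 4 rose and 2 fell in each mutant. Mybpc3, the myosin-binding protein C of heart, rose in Neil1 to 18 ± 5.56 CPM from 3.46 ± 2.13 CPM in control, and Tnni1, the slow troponin I, fell in Neil1 and Neil2 (−1.79, FDR 0.00947, and −2.25, FDR 0.00524). Among skeletal muscle genes, Mylpf rose in all 3 mutants (1.67, 2.40 and 2.10, FDR 0.0201, 0.00353 and 0.00103), whereas Pax7, of muscle and neural crest progenitors, fell in all 3 (−3.43, −2.92 and −1.30, FDR 0.00891, 0.00183 and 0.0382). In all, 4, 6 and 3 of 9 skeletal muscle genes rose and 2, 2 and 1 fell. Of 12 smooth muscle genes 6 were lower in each mutant and 1, Synpo2, was higher in Apex1 (1.18, FDR 0.0583), with Acta2 the largest fall (−4.23, −2.97 and −2.20). Of the streak genes 4 of 8, 5 of 9 and 6 of 10 rose, of the calcium handling genes 4 of 15, 1 of 17 and 0 of 17 rose and 5, 3 and 2 fell, of the endothelial genes 3, 2 and 3 of 8 rose and 3, 3 and 2 fell, and of the endoderm genes 5, 1 and 1 of 8 rose.

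The interaction of genotype and RA tested whether the difference of each Neil mutant from control changed with RA. It was called for 5 of 10 genes in Neil1, where 32.2% of all tested genes were called in either direction, and for 8 of 10 in Neil2, where 15.4% were. Both counts include Acta1, Hand2, Tbx5 and Tnnt2, and that of Neil2 also Actc1 and Nkx2-5. The values of these genes are a description, so that nothing is read from the counts. A positive value means that the mutant gained on control with RA. No such term was fitted for Apex1.
Acta1 had the largest value among the 10, 4.39 (SE 0.56) in Neil1 and 4.55 (SE 0.62) in Neil2, given as a description since its control EBs took part in the selection. Tnnt2 followed the same course, with 2.47 (SE 0.58) and 1.97 (SE 0.55), and 1.91 to 2.81 and 1.72 to 2.70 without 1 library. These are a description too, since the difference in EBs that they include is one. Myl7 gained 1.39 (SE 0.35, FDR 0.0151) and 1.68 (SE 0.39, FDR 0.016), and both calls held in all 12 fits that left out 1 library.
Hand2 had 2.39 (SE 0.95) in Neil1 and 4.02 (SE 0.92) in Neil2, with 1.89 to 3.72 and 3.43 to 4.63 over the 12 fits without 1 library. Actc1 had 1.44 (SE 0.62) and 3.10 (SE 0.76), with 0.997 to 1.78 and 2.33 to 3.48. Both had fewer than 10 counts in every Neil EB library. The values are a description without a test, since the difference in EBs that they include is one. Both genes remained lower in these mutants than in control with RA.
Tbx5 fell further behind in both, with −2.20 (SE 0.74) in Neil1 and −2.98 (SE 0.61) in Neil2. Without 1 library the values ranged from −2.69 to −1.83 and from −3.31 to −2.69. Tbx5 had 1 to 4 counts in Neil1 EBs, 5 to 11 in Neil2 EBs and 4 to 11 in control EBs, under the filter there. Its values are therefore a description without a test. In Neil2, Ryr2 (−0.75, FDR 0.0901) was also called, in 1 of 12 fits that left out 1 library. Nkx2-5 had 1.55 (SE 0.53) in Neil2, with 1.34 to 1.82 over these fits. That value is a description too, since the difference in EBs + RA that it includes is one.

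**Figure D4:**
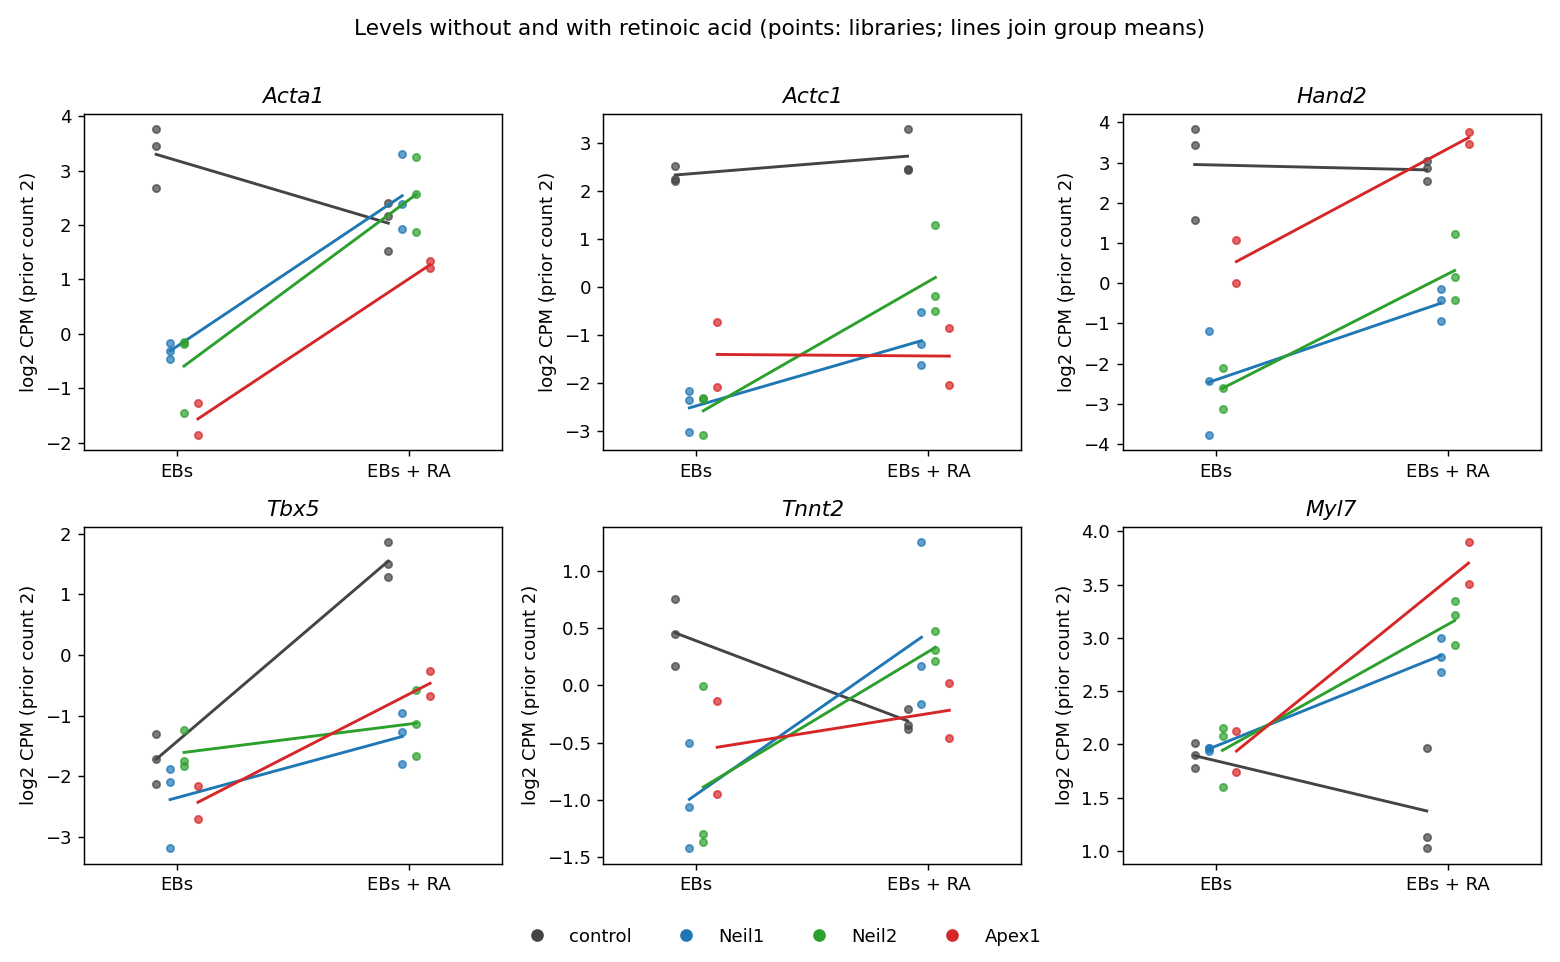
Log2 CPM (y axis, prior count of 2) of 6 genes in EBs and EBs + RA (x axis) by genotype (colour), with 1 point per library and lines joining group means. Acta1 and Tnnt2 fell with RA in control and lay higher with RA in both Neil mutants, and Tbx5 rose most steeply in control.

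Across all 33 libraries the 10 genes did not form a single block. The pairs with the highest Pearson correlation of log2 CPM were Myh6 with Myh7 (r = 0.92), which share sequence, Hand2 with Actc1 (r = 0.83) and Actc1 with Acta1 (r = 0.775). Ryr2 ran against this group, with r = −0.793 to Hand2 and −0.758 to Actc1. The libraries share stages, genotypes and control clones, and the values are a description.
For genes that reached 5 CPM in a library, the 3 most similar genes among 13180 were sought by the same measure, and they are given here for Hand2, Actc1, Acta1, Myl7 and Ryr2. Hand2 ran closest to Unc5c, Bmp5 and Hmga2 (r = 0.942, 0.94 and 0.94). Actc1 ran closest to Adamts3, Bmp5 and Lgr5 (r = 0.916, 0.905 and 0.901), and Acta1 to Usp18, Anxa3 and Csf1 (r = 0.919, 0.916 and 0.914). Myl7 had Slc1a5, Gm807 and 1700019N12Rik (r = 0.887, 0.884 and 0.872), and Ryr2 had Arhgef18, Ptk2b and Abcc5 (r = 0.916, 0.91 and 0.885). No other of the 10 genes was among these nearest 3.

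**Figure D5:**
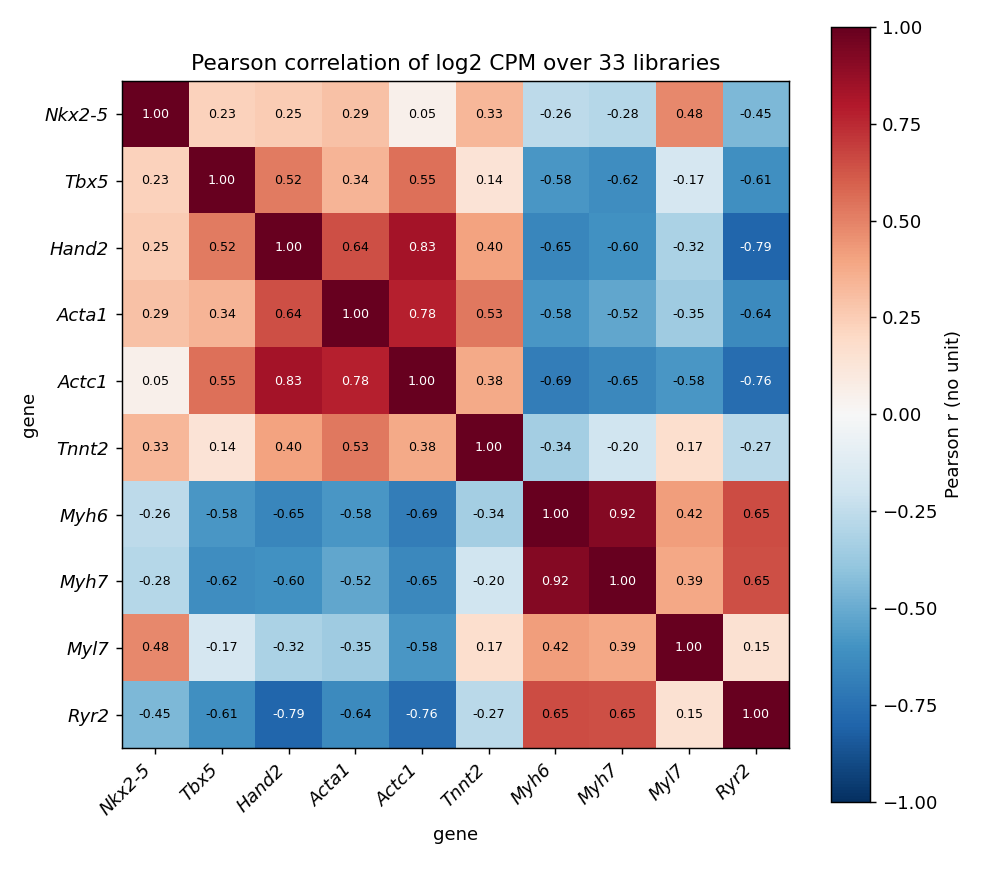
Pearson correlation of log2 CPM over 33 libraries for each pair of the 10 genes (both axes), from −1 (blue) to 1 (red), with the value in each cell. Hand2, Acta1 and Actc1 formed a group with r from 0.643 to 0.83, and Ryr2 had negative values with each of them.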

How the data were processed

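RNA-seq libraries were made by the authors from total RNA with the TruSeq RNA kit v2, which does not mark strand, and sequenced for 51 cycles. Per the submitters' processing notes and the methods, reads were aligned with TopHat2 2.0.9 to NCBIM37 and counted per Ensembl gene with HTSeq 0.5.4. The deposited values are raw counts for 37991 identifiers in 33 libraries, without normalization or pooling. Reads without a unique place made up 11.4% to 19.9% of each library and reads outside a single gene 8.32% to 11.4%. Both were left out of library sizes. Groups came from the labels.

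Counts were analysed in R 4.3.3 with edgeR 4.0.16 (filterByExpr, TMM normalization, robust quasi-likelihood fit) over all genes, each mutant against control of its stage, each control stage against the one before, and the genotype and RA interaction for Neil1 and Neil2. Calls were made where the Benjamini-Hochberg FDR was under 0.1 and the log2 fold change beyond 0.5 in size, and by FDR alone for the interaction. All p-values rest on 3 clones per group, or 2 technical duplicates of 1 clone. An exact permutation test could not go below p = 0.1 with 3 against 3 libraries or 0.2 with 3 against 2, so none was used. On simulated counts the steps were tested before use. The 10 genes and 11 further gene lists (148 of 151 genes with an identifier) were chosen with earlier results of these data known, and patterns already known from them are no independent support. All 10 genes are named. From each list the called genes with the largest rise and fall and a mean of at least 1 CPM were named, and for likeness the 3 genes with the highest correlation. The likeness result of Myh6 is not reported here. Genes of the lists named by level alone were chosen after their values were seen.

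Control libraries of different stages and the same number come from 1 clone. Their deviations correlated by −0.194 to 0.204 between mESCs and EBs and by 0.345 to 0.414 between EBs and EBs + RA. Control and Neil1 EBs + RA share only numbers, but all 3 same-number correlations were above 0.1 (0.22 to 0.295). Alternatives were DESeq2 1.42.0, an FDR of 0.05, RLE in place of TMM, keeping genes of low count, a replicate block, all genotypes in 1 fit, summed duplicates and leaving out each library. Promoters were taken from RefSeq (GRCm38.p6) and placed on NCBIM37 by exact match, and figures were drawn with matplotlib 3.10.9.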

Additional observations from a re-analysis of the deposited data

Results flagged for a closer look

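The difference of a Neil mutant from control changed with RA, by the test of the interaction term, for Myl7 (1.39 on the log2 scale in Neil1 and 1.68 in Neil2). In Neil2 alone it passed for Ryr2 (−0.75). Values without a test were 2.47 and 1.97 for Tnnt2, 2.39 and 4.02 for Hand2 and −2.20 and −2.98 for Tbx5. In Neil2 they were also 3.10 for Actc1 and 1.55 for Nkx2-5. For Acta1 the change was 4.39 and 4.55, a description without a test, since its control EBs took part in choosing the genes. Hand2 and Actc1 had fewer than 10 counts in every Neil EB library, and Tbx5 was under the filter in EBs. Tnnt2 passed the filter in EBs through control, and Nkx2-5 in EBs + RA through the Neil mutants. Whether Neil1 and Neil2 differ in these values was not tested. Positive values mean a gain of the mutant on control with RA. No group had the 4 libraries needed to look for a sample far from the others.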

How the results depend on the processing

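The count of called genes among the 10 was 0 in Neil1 and in Neil2 mESCs. It was 1 with DESeq2 in each and 2 with all genotypes in 1 fit in Neil1, and leaving out 1 library gave 0 to 2 in each, the 2 arising without control mESC replicate 3. In Neil2 EBs + RA the count of 8 became 5 at an FDR of 0.05, with DESeq2, without the filter on low counts and with the replicate block, and 5 to 6 without 1 library, the 5 without control replicate 1 or Neil2 replicate 3. In Apex1 mESCs the count of 1 became 0 at an FDR of 0.05 or with duplicates summed, 2 with DESeq2, 3 with the replicate block, and 0 to 3 without 1 library. It was 0 without control replicate 1 or 2 or either duplicate and 3 without control replicate 3. In Apex1 EBs 6 became 3 at an FDR of 0.05, 2 with duplicates summed and 2 to 7 without 1 library, 2 without duplicate 1 and 3 without duplicate 2. Without 1 library the count ranged from 2 to 6 in Apex1 EBs + RA (2 without duplicate 1), from 3 to 5 in the Neil1 interaction (3 without Neil1 EB replicate 1) and from 5 to 7 in the Neil2 interaction (5 without control EB replicate 1). Other counts stayed within 1.5 times. The counts include Acta1, Hand2, Actc1, Tbx5, Tnnt2, Nkx2-5 and Myh7 also where their values are a description. Causes were not tested. Fewer samples or, with duplicates summed, 1 library in an arm that is assumed to vary like control, go with the lower Apex1 counts.

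Apart from Neil1 in EBs + RA, where same-numbered libraries deviated together, control and mutant libraries share only a replicate number. In the paired fit with the replicate block the counts were 0, 5 and 6 in Neil1 mESCs, EBs and EBs + RA, 0, 5 and 5 in Neil2, 3, 6 and 6 in Apex1, 7 and 6 in the control stage comparisons and 5 and 8 in the interactions. Over all tested genes the block moved the calls in Apex1 mESCs from 2751 to 6140 and in Neil2 mESCs from 286 to 634, and in Neil1 mESCs from 283 to 0. RLE size factors changed no call among 90 values. Levels under 1 CPM rest on few counts, which limits Nkx2-5, Tbx5 and Tnnt2 most.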
